A study of Mus musculus with 11 samples.

Results

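Inflammasomes were examined in mouse macrophages exposed to CYR61 through 9 genes, taken by symbol from the 55487 gene IDs of the deposited count table: the sensors Nlrp3, Nlrc4, Nlrp1b and Aim2, the adaptor Pycard, the proteases Casp1 and Casp4, the pore-forming Gsdmd and the cytokine Il18. Each symbol matched 1 gene ID, and all 9 passed the filter on low counts. The tested libraries were 4 of bone marrow-derived macrophages given 0.5 µg/ml CYR61 for 24 h. They were set against 7 control libraries at 0 µg/ml. All cells were grown from tibia and femur marrow of C57BL/6J mice aged 2 to 5 months, differentiated for 5 to 6 days with 10% CMG-conditioned medium and then held in 2%. CYR61 (CCN1) is a matricellular protein that cells release and that acts through integrin receptors. The labels do not name a vehicle for the control cells.

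An inflammasome is a complex that forms in the cytosol when a sensor protein meets a microbial product or a sign of cell damage. The sensor recruits, through the adaptor ASC encoded by Pycard, or binds directly, the protease caspase-1, which cuts the precursors of interleukin-1 beta and interleukin-18 and opens gasdermin D. The freed part of gasdermin D makes pores in the plasma membrane, through which the cytokines leave and the cell can die by pyroptosis. Mouse caspase-11, encoded by Casp4, is activated by cytosolic lipopolysaccharide and cuts gasdermin D itself. Macrophages hold many of these proteins at rest, and transcription of some of the genes, Nlrp3 and Il1b among them, is known to rise with toll-like receptor or interferon signals.

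The data held small differences in these genes. Gsdmd and Pycard were higher in CYR61-treated macrophages, by 10.9% and 8.97%, and 0 of the 9 genes were lower by the edgeR quasi-likelihood test. The other 7 did not pass: Casp1, Casp4, Il18, Nlrc4, Nlrp1b and Nlrp3 stood at 1.01 to 1.19 times control and Aim2 at 0.965 times control. Over all genes tested, 5.33% were called higher and 2.63% lower, or 7.96% in either direction, so 2 higher calls among 9 genes (22.2%) rest on few genes. Of the 9 log2 fold changes, 8 were above 0, against 47.5% of all genes tested. Their median was 0.10, against -0.0076 over all genes tested. At an unadjusted p under 0.05 the edgeR test placed 5 of the 9 as higher and 0 as lower, against 11.2% of all genes as higher.

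The libraries held 17390272 to 20760322 counts with CYR61 and 14912123 to 21047654 in controls. With CYR61 the share of ribosomal RNA was 0.246 to 0.562% in replicates 1 to 3 and 2.41% in replicate 4, against 0.255 to 0.797% in controls. Mitochondrial genes took 0.953% of counts in replicate 1 with CYR61 and 1.32 to 1.39% in replicates 2 to 4, against 1.24 to 1.504% in controls. The macrophage label was checked on markers such as Lyz2, Csf1r, Cd68 and Adgre1, which encode lysozyme, the M-CSF receptor and surface or lysosomal proteins of the lineage. Summed over 8 macrophage markers, the level was 25017 to 27247 CPM with CYR61 and 22528 to 23876 CPM in controls. Most of each sum was Lyz2, at a mean of 19563 CPM with CYR61 and 17244 CPM in controls. Of the 8 markers 6 were called higher, against 5.33% of all genes tested. Cd68 (log2 fold change -0.032) and Mertk (0.15) did not pass. The monocyte markers Ccr2 and Ly6c2 were called higher, Ccr2 at 48.6 to 58.3 CPM with CYR61 and 41.6 to 46.5 CPM in controls, and Ly6c2 at 0.610 to 1.38 CPM with CYR61 and 0.0495 to 0.158 CPM in controls. Neutrophil markers summed to 1.61 to 2.11 CPM with CYR61 and 0.785 to 1.39 CPM in controls, with S100a8 called higher and S100a9, Ly6g and Elane at no more than 3 counts in any library. Dendritic, T, B, NK, mast, erythroid and stromal marker lists each summed to at most 2.13 CPM in any library, with 0 genes called. The part of these marker shifts in the values below was not tested. In bulk RNA, a change in the number of cells that express a gene and in RNA per cell cannot be told apart.

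Promoter sequence was available from RefSeq (GRCm38.p6) for 8 of the 9 genes, as 300 bases from 250 before to 50 after the annotated start, and Gsdmd is the gene without an entry. The sources used here do not name the build behind the counts. A pair of promoters is shown: that of Pycard, because the gene was called higher, and that of Casp4, because no other of the 8 genes had a window with more than 2 matches to the kB motif. Capitals mark bases matched by any of 3 motifs read on both strands. The motifs were the core of the interferon-stimulated response element (GAAA, 2 bases of any kind, GAAA), the gamma-activated site (TTC, 3 bases of any kind, GAA) and the kB site (GGG, 5 bases of any kind, CC).
Pycard, chr7:127993818-127994117, minus strand: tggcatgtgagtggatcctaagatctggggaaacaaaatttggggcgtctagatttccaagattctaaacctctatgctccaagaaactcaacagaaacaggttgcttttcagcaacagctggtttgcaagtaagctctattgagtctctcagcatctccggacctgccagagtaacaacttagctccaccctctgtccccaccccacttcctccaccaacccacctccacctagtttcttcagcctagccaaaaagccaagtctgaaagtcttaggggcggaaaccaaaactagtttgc
Casp4, chr9:5308599-5308898, plus strand: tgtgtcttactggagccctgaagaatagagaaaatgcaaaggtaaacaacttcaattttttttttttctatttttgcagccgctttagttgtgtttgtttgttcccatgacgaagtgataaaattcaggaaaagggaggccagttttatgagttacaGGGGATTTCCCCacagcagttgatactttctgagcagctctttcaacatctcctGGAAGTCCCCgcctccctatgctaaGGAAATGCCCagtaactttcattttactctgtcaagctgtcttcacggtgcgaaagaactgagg

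The Pycard window held 0 matches to any of the 3 motifs. The Casp4 window held 6 kB matches over both strands in 3 stretches. Those in the first stretch overlap each other, and 1 site there matched on both strands and counts as 2. RefSeq gives Casp4 a second start window, which begins at base 5308610 and also held 6 kB matches. Among the other promoters, Casp1 had 1 kB match and Nlrp3 had 2 and 1 in its pair of annotated start windows. The 2 are 1 stretch of Nlrp3 that matched on both strands. Those of Nlrc4, Nlrp1b, Aim2 and Il18 had 0 matches. The kB pattern is loose and occurs in 50.8% of 32851 promoter windows of the same length, the interferon core in 3.44% and the gamma-activated site in 8.30%. These shares count windows with any match, and the share with 6 kB matches was not counted. A match describes letters, and binding was not measured.

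Among the sensors, 0 of 4 passed in either direction. Nlrp3, whose product responds to potassium loss and membrane damage, had 43.0, 43.1, 47.3 and 43.7 CPM in the 4 CYR61 libraries, and the 7 controls had a lowest value of 40.0, a median of 43.1 and a highest of 48.7 CPM. Every CYR61 value lay inside the control range, and the fitted fold was 1.01 with a 95% interval of the difference from -5.89% to 8.72% (adjusted p = 0.897, edgeR with Benjamini-Hochberg). A rise of 10% or more in Nlrp3 thus lay outside the interval. The sign of its log2 fold change turned with scaling by library size alone, to -0.028.

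Nlrc4, which joins NAIP proteins in the response to bacterial flagellin and secretion needle proteins, had 18.6, 17.4, 19.8 and 18.5 CPM with CYR61 against a control range of 16.5 to 19.2 CPM and a control median of 17.1 CPM. CYR61 replicate 3 was above every control, and all 4 CYR61 libraries were above the control median. The difference of 6.90% had an interval from -1.36% to 15.9% and did not pass (adjusted p = 0.352, edgeR with Benjamini-Hochberg).

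Nlrp1b encodes a sensor that anthrax lethal factor cuts in some mouse strains but not in all. Its level was 62.6, 61.6, 57.5 and 57.7 CPM with CYR61 against 53.6 to 61.5 CPM in controls. The control median was 57.1 CPM. The groups overlapped, and the difference of 4.43% (95% interval -1.44% to 10.7%) did not pass. Its estimated counts were not whole in 4 of 11 libraries, and in each of these the fraction added to that of the neighbouring paralogue Nlrp1a to a whole number, within 0.011. The deposited values therefore split some reads between Nlrp1a and Nlrp1b. No stretch of 150 bases, the read length, was common to the Nlrp1b transcripts and those of another gene in GENCODE M21. With the counts of both genes summed, a setting chosen after seeing the data, the log2 fold change was 0.06 and did not pass.

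Aim2, which binds double-stranded DNA in the cytosol, had 24.8, 24.6, 26.2 and 26.7 CPM in CYR61 libraries, and 23.9 to 30.1 CPM with a median of 26.5 CPM in controls. It was the 1 gene of the 9 with a mean below control, and its 4 CYR61 values all lay within the control range. The difference was -3.47% with an interval from -11.05% to 4.75% (adjusted p = 0.671, edgeR with Benjamini-Hochberg).

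**Figure D1:**
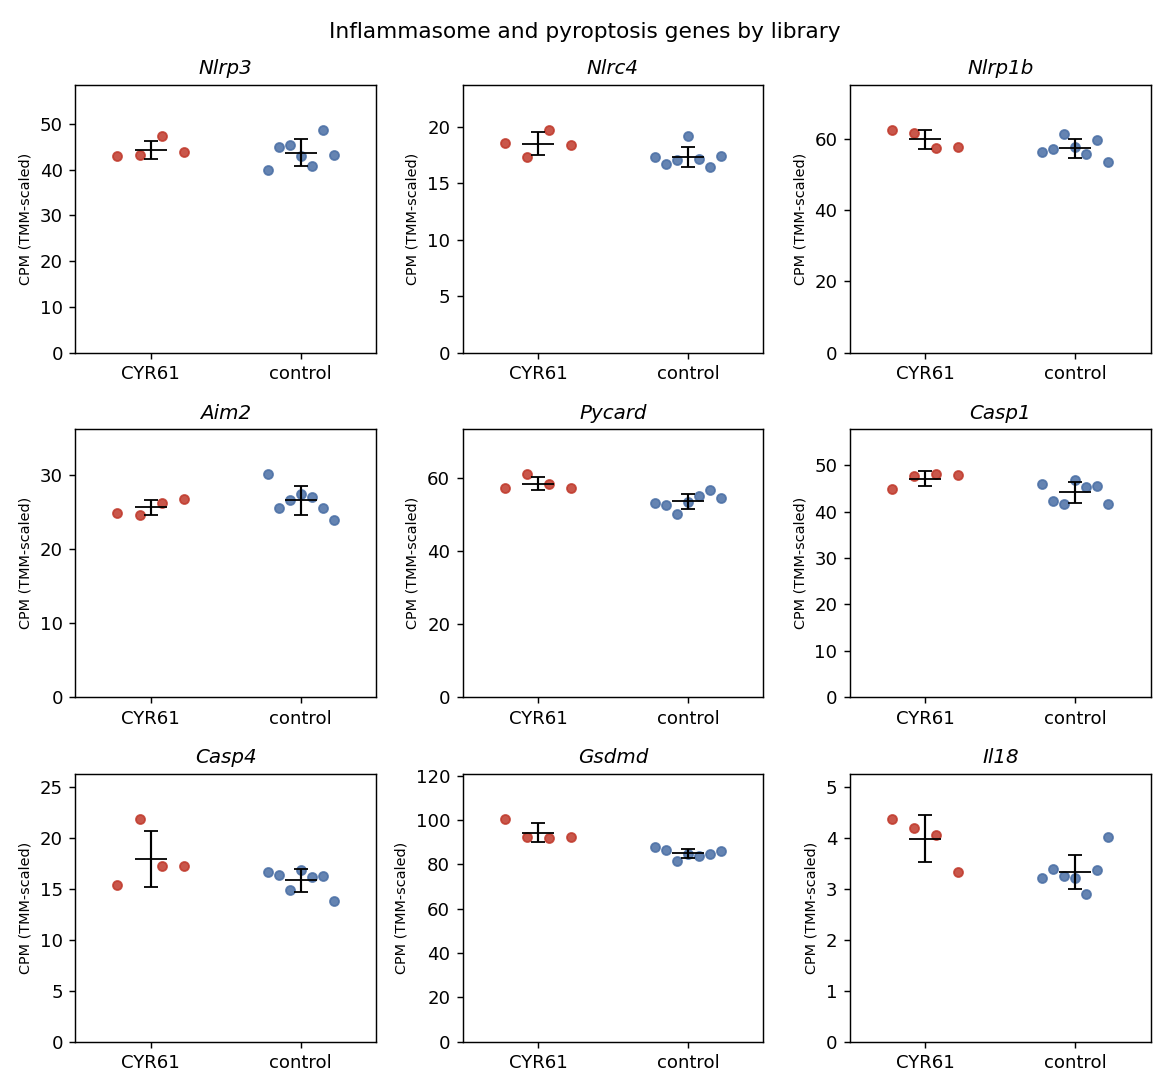
TMM-scaled CPM (vertical axes, from 0) of the 9 genes in 4 CYR61 libraries (red, left) and 7 control libraries (blue, right); points are libraries, and the black line and bars give the mean and SD. The CYR61 points lie above all control points for Pycard and Gsdmd and overlap the control points in the other 7 panels.

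Pycard encodes ASC, the adaptor that links pyrin-domain sensors to caspase-1. Its level was 57.2, 61.0, 58.2 and 57.2 CPM in the CYR61 libraries, and the controls had a lowest value of 50.04, a median of 53.4 and a highest of 56.6 CPM. All 4 CYR61 libraries were above all 7 controls, an arrangement found for 4.65% of all genes tested. The means were 58.4 ± 1.82 CPM with CYR61 (SD, n = 4) and 53.6 ± 2.05 CPM in controls (SD, n = 7). Pycard rose 1.09-fold (log2 fold change 0.12, SE 0.04, adjusted p = 0.0409, edgeR with Benjamini-Hochberg). The gap between the lowest CYR61 and the highest control library was narrow, and the call was lost without any single one of control replicates 1 to 5 or CYR61 replicates 2 to 4 (adjusted p 0.0532 to 0.167). It was kept without control replicate 6 or 7 or CYR61 replicate 1. With scaling by library size alone the log2 fold change was 0.08 and the adjusted p 0.208.

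Pycard counts carried a fraction in all 11 libraries, and the fractions added to whole numbers with those of 1 other gene, Gm45205. GENCODE M21 places Gm45205 on the opposite strand over the start of Pycard, and 9.12% of the 150-base windows of Pycard transcripts also occur in Gm45205, read on the other strand. Whether the libraries kept the strand is not stated in the labels, and reads from the common stretch cannot be assigned here. Gm45205 itself had 0.641 to 1.11 CPM with CYR61 and 0.429 to 0.980 CPM in controls, which did not pass. With both genes summed, a setting chosen after seeing the data, the log2 fold change of Pycard was 0.13 and the adjusted p 0.0327.

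Neither protease gene passed. Casp1 encodes caspase-1, which matures interleukin-1 beta and interleukin-18. It had 44.9, 47.8, 48.1 and 47.9 CPM with CYR61 against 41.6 to 46.8 CPM in controls, with a control median of 45.3 CPM. CYR61 replicates 2 to 4 were above every control and replicate 1 was below the control median. The difference of 6.75% had an interval from 0.481% to 13.4% and did not pass (adjusted p = 0.201, edgeR with Benjamini-Hochberg).

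Casp4 had 15.4, 21.9, 17.3 and 17.2 CPM with CYR61, and 13.8 to 16.8 CPM with a median of 16.2 CPM in controls. CYR61 replicate 2 stood apart at the top, replicates 3 and 4 were just above the highest control, and replicate 1 lay among the controls. Casp4 therefore had the widest spread of the 9 genes in CYR61 libraries, a coefficient of variation of 15.5% against 6.91% in controls. Its log2 fold change was 0.19 (SE 0.08) and did not pass (adjusted p = 0.203, edgeR with Benjamini-Hochberg). Without CYR61 replicate 2 the log2 fold change was 0.07 (adjusted p = 0.67), and without CYR61 replicates 1 and 4 it was 0.32 (adjusted p = 0.0552). In the authors' deposited table, Casp4 passed with a log2 fold change of 0.213 and an adjusted p of 0.044.

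Gsdmd, the gene of the pore-forming protein, was the most abundant of the 9 and had the lowest p. It had 101, 92.3, 92.0 and 92.3 CPM in CYR61 libraries, and the controls had a lowest value of 81.7, a median of 84.9 and a highest of 87.8 CPM. All CYR61 libraries were above all controls, with replicate 1 above the other 3. Gsdmd averaged 94.3 ± 4.27 CPM with CYR61 (SD, n = 4) and 85.0 ± 2.02 CPM in controls (SD, n = 7). It rose 1.11-fold (log2 fold change 0.15, SE 0.03, adjusted p = 0.0061, edgeR with Benjamini-Hochberg), with an interval from 5.85% to 16.3%. The call held in the 11 fits that left out 1 library each, and was lost with scaling by library size alone (log2 fold change 0.11, adjusted p = 0.0671) and without CYR61 replicates 1 and 4 together (0.12, adjusted p = 0.0718). CYR61 replicate 1 is also the library with the lowest mitochondrial share and CYR61 replicate 4 that with the highest ribosomal RNA share, and their part in the Gsdmd value was not tested.

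Il18 was the least abundant by count, with 49 to 85 counts per library. This cytokine, which drives interferon-gamma production in lymphocytes, is held as a precursor until caspase-1 cuts it. Il18 had 4.38, 4.19, 4.05 and 3.33 CPM with CYR61 against 2.89 to 4.01 CPM in controls, with a control median of 3.25 CPM. CYR61 replicates 1 to 3 were above every control, replicate 4 was among them, and control replicate 7 was the highest control. The fitted difference of 19.5% was the largest of the 9 genes, with the widest interval, from 0.806% to 41.5% (adjusted p = 0.218, edgeR with Benjamini-Hochberg). Its coefficient of variation was 11.5% with CYR61 and 10.2% in controls, and counting alone gives about 12.3% at a mean of 66.5 counts. For Gsdmd, at a mean of 1641 counts, counting alone gives 2.47%. Such values cover counting error only.

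In the authors' deposited table, 3 of the 9 genes passed as higher, against 7.85% of the genes in that table. Gsdmd had a log2 fold change of 0.137 (adjusted p = 0.000811) in the authors' deposited table, Pycard 0.134 (adjusted p = 0.0136), and Casp4 the value above. Casp1 stood at an adjusted p of 0.0825 in the authors' deposited table, and Il18 at 0.17.

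**Figure D2:**
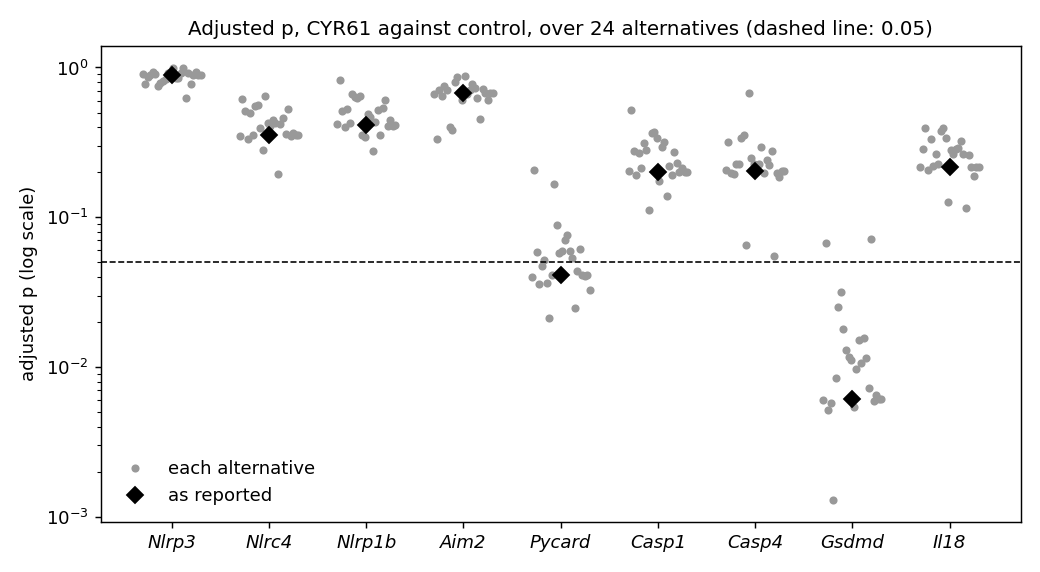
Adjusted p of CYR61 against control (vertical log axis) for each of the 9 genes; the black diamond is the value in the text, grey points are the 24 alternatives and the dashed line is the threshold of 0.05. Grey points of Gsdmd are mostly below the line, those of Pycard lie on both sides of it, and those of the other 7 genes are all above it.

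Levels were compared between genes per kilobase of merged exon in the basic set of GENCODE M21, a subset of its transcripts. Gsdmd stood highest, at 52.6 ± 2.38 CPM per kilobase with CYR61 and 47.5 ± 1.13 in controls (SD, n = 4 and n = 7). Casp1 followed at 31.5 ± 1.03 with CYR61 and 29.5 ± 1.49 CPM per kilobase in controls, and then Pycard at 15.4 ± 0.478 and 14.1 ± 0.539. Below these, Casp4, Nlrp3, Aim2 and Nlrp1b formed a band of 9.01 to 12.5 CPM per kilobase with CYR61 and 9.33 to 11.03 in controls, in which neighbours had overlapping control ranges. Nlrc4 and Il18 were lowest, at 3.86 ± 0.206 and 3.87 ± 0.445 CPM per kilobase with CYR61 and 3.61 ± 0.183 and 3.23 ± 0.329 in controls, and also overlapped. At these lengths, the downstream Gsdmd and Casp1 transcripts were thus more abundant per length than those of any of the 4 sensors in both groups. With the longest transcript as the length, Nlrp1b moved from rank 7 to rank 4, and the first 3 places did not move. With the shortest transcript Nlrp1b stood at 16.3 CPM per kilobase in controls, above Pycard at 14.1. The basic set holds 1 Pycard transcript of 3800 bases, and a shorter Pycard transcript would give a higher level. The full GENCODE M21 set holds more sequence for some of the genes. Gsdmd had 2613 distinct 150-base windows there, against 1792 merged exon bases in the basic set. Casp4 had 3758 windows against 1435 bases. Levels and ranks with the full set were not computed.

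**Figure D3:**
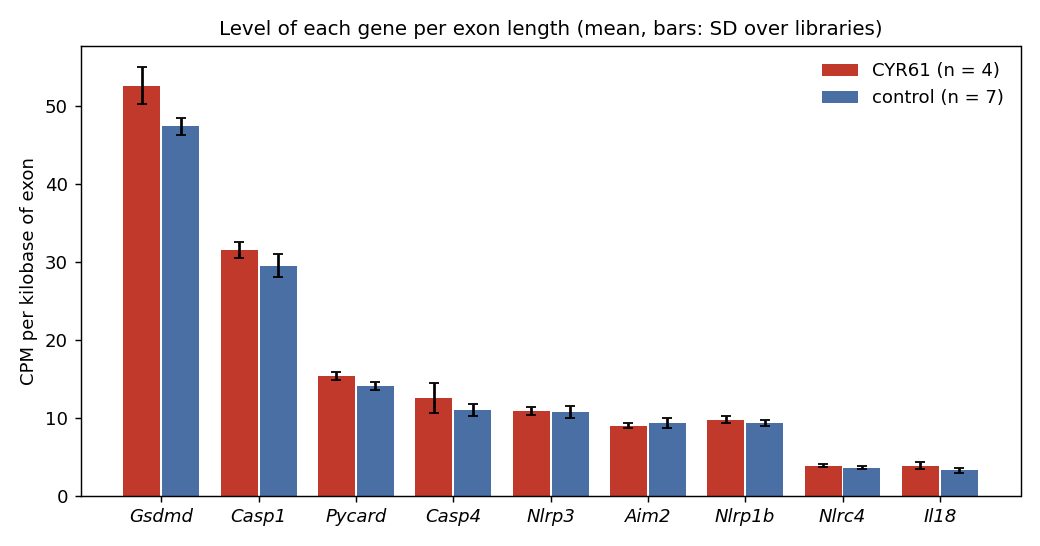
Mean CPM per kilobase of merged exon (vertical axis, from 0) of the 9 genes, with exons of the GENCODE M21 basic set. CYR61 (red, n = 4) and control (blue, n = 7) libraries are shown with SD bars, ordered by the control level. Gsdmd and Casp1 stand above the other 7 genes in both groups, and Nlrc4 and Il18 are lowest.

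Likeness of profile was measured over the 8658 tested genes averaging 10 CPM or more. Those whose centred log2 CPM was nearest to that of Gsdmd over the 11 libraries were Eif6, Mydgf and Poldip3 (root mean square difference 0.0265 to 0.0322). For Pycard the nearest were Dse, Tifab and Unc93b1 (0.0302 to 0.0311). Unc93b1, which carries nucleic acid sensing toll-like receptors to endosomes, had 934 ± 24.9 CPM with CYR61 (SD, n = 4) and 853 ± 23.3 CPM in controls (SD, n = 7).

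Other genes of the pathway were read from 7 lists of 61 genes, of which 48 could be tested. Of these, 18 rose and 0 fell (37.5% higher, against 5.33% of all genes tested). The median log2 fold change of the 48 was 0.07, against -0.0076 over all genes. Above 0 were 31 of the 48, against 47.5% of all genes tested. At an unadjusted p under 0.05 by edgeR, 25 of the 48 passed, 21 higher and the rest lower. Over all genes tested, 11.2% were higher at that level. The lists were drawn up with earlier results of these data known, among them a rise of interferon-stimulated genes, so their counts are a description. Scaled by library size only, 14 rose and 3 fell.

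Among the other sensors, 2 of 7 tested genes rose and 0 fell at the adjusted threshold, against 5.33% and 2.63% of all genes tested. Of the 7 log2 fold changes 3 were above 0, with a median of -0.045. At an unadjusted p under 0.05 by edgeR, 5 of the 7 passed, 2 of them higher. The others were Nlrp10, Naip5 and Naip6, all lower. Over all genes tested, 11.2% were higher at that level. The share lower was not counted, so the lower genes have no share to be set beside. Mefv, which encodes the sensor pyrin, had 3.77, 5.08, 3.64 and 3.06 CPM with CYR61, and 1.66 to 2.52 CPM with a median of 1.88 CPM in controls. The groups did not overlap, and Mefv rose 2.02-fold (log2 fold change 1.01, SE 0.15, adjusted p = 0.000308, edgeR with Benjamini-Hochberg), a call kept in all 22 alternatives run for it. Naip2, whose product binds needle-complex proteins for NLRC4, rose to 93.4 ± 2.46 CPM with CYR61 (SD, n = 4), against 87.5 ± 1.69 CPM in controls (SD, n = 7), with an adjusted p of 0.0464 by edgeR that was lost in 18 of 22 alternatives. Its paralogues Naip5 and Naip6, which bind flagellin, had 53.9 and 62.7 CPM with CYR61 and 56.8 and 67.3 CPM in controls and did not pass. Since these genes are near copies of each other, the division of reads among them is uncertain. Nlrp1a, Nlrp10 and Naip1 did not pass. Nlrp6, Nlrp9b and Nlrp12 had at most 2 counts in any library.

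Of 5 tested genes described from the list of other caspases and membrane rupture, 2 rose and 0 fell. Over all genes tested, 5.33% rose and 2.63% fell. Chmp4b, a subunit of the ESCRT machinery that repairs membranes, rose to 167 ± 5.26 CPM with CYR61 (SD, n = 4), against 145 ± 7.70 CPM in controls (SD, n = 7; adjusted p = 0.00296, edgeR). Casp8, the initiator caspase of death receptors, rose 1.09-fold (adjusted p = 0.0466, edgeR), with overlapping groups and a call lost in 12 of 22 alternatives. Ninj1, which ruptures the membrane in the last step of lytic death, was abundant at 347 ± 6.08 CPM with CYR61 (SD, n = 4) and 333 ± 9.81 CPM in controls (SD, n = 7) and did not pass. Gsdme and Chmp3 did not pass either. Casp12, Gsdma and Gsdmc had at most 4 counts in any library.

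Of the interleukin-1 family list, 5 of 10 genes could be tested, 1 rose and 0 fell (5.33% and 2.63% of all genes tested). Il18bp, whose product is a secreted decoy that binds interleukin-18, had 12.9, 14.1, 12.4 and 13.6 CPM with CYR61, and 9.64 to 11.7 CPM with a median of 10.3 CPM in controls. No CYR61 library overlapped a control, and Il18bp rose 1.28-fold (log2 fold change 0.36, SE 0.07, adjusted p = 0.00169, edgeR with Benjamini-Hochberg), kept in all 22 alternatives. Il18 itself was 1.19 times control and did not pass, so the call falls on the binding protein and not on the cytokine. The difference between their 2 changes was not tested.

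Il1b, the other caspase-1 substrate cytokine, was too low for the filter, with at most 16 counts in a CYR61 library and at most 5 in a control. It had 0.109 to 0.789 CPM with CYR61 and 0.0536 to 0.272 CPM in controls. CYR61 replicates 1 to 3 were above every control and replicate 4 was among them. Without the filter its log2 fold change was 1.70 with an adjusted p of 0.0212 (edgeR with Benjamini-Hochberg), on a level under 1 CPM in every library. Il1a had at most 4 counts in any library and did not pass there (adjusted p = 0.398, edgeR). Il1r2 had at most 1 count, and Il18r1 and Il33 had 0 counts in all 11 libraries. Il1rn, Il1r1, Il1rap and Il18rap were tested and did not pass.

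Regulators of assembly rose in 3 of 10 tested genes and fell in 0, against 5.33% and 2.63% of all genes tested. Ifi208 and Ifi213, also named Pydc3 and Pydc4, encode pyrin-domain proteins of the interferon-inducible p200 family. Ifi213 had 13.7 ± 1.26 CPM with CYR61 (SD, n = 4) and 6.79 ± 1.79 CPM in controls (SD, n = 7), a 2.03-fold rise (adjusted p = 0.000186, edgeR). Ifi208 had 3.82 ± 0.979 CPM with CYR61 (SD, n = 4) and 1.89 ± 0.627 CPM in controls (SD, n = 7), a 2.02-fold rise (adjusted p = 0.00601, edgeR). Both belong to a cluster of similar genes, so their counts are uncertain where reads were shared. Dpp9, a peptidase that holds NLRP1 inactive, rose 1.11-fold (adjusted p = 0.0119, edgeR), to 68.8 ± 2.94 CPM with CYR61 (SD, n = 4), against 62.0 ± 1.96 CPM in controls (SD, n = 7), a call lost with scaling by library size alone. Its homologue Dpp8 did not pass, nor did Nek7 and P2rx7, a partner of NLRP3 and a receptor for extracellular ATP, or Txnip, Panx1, Brcc3 and Mark4. Serpinb1a and Trim31 had at most 3 counts in any library.

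Interferon-linked genes that feed these pathways rose in 7 of 10 and fell in 0, against 5.33% and 2.63% of all genes tested. This list, too, was drawn up with the rise of interferon-stimulated genes in these data known. Gbp2, a guanylate-binding protein that coats bacteria and releases lipopolysaccharide for caspase-11, rose 2.04-fold, to 21.1 ± 2.17 CPM with CYR61 (SD, n = 4), against 10.3 ± 1.51 CPM in controls (SD, n = 7). Zbp1, a sensor of Z-form nucleic acid that can engage NLRP3, rose 1.96-fold (adjusted p = 1.09e-06, edgeR), and Gbp3 rose 1.69-fold. Irf1, a transcription factor of Gbp and Aim2 expression, had 81.0 ± 2.57 CPM with CYR61 (SD, n = 4) and 68.2 ± 2.05 CPM in controls (SD, n = 7; adjusted p = 6.53e-05, edgeR). Gbp5, Gm12250 (which encodes IRGB10) and Sting1 also rose, by 1.69, 1.53 and 1.13 times, and were named beyond the rule after their values were seen. The Sting1 groups overlapped, and its call was lost with scaling by library size alone and without CYR61 replicate 2 or 4. Irf2, Irf8 and the DNA sensor Cgas did not pass. The folds of the 7 called genes of this list were 1.13 to 2.04, against 1.09 and 1.11 for the called Pycard and Gsdmd, and differences between genes were not tested.

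In the necroptosis list Mlkl, which encodes the pore-forming effector of necroptosis, rose 1.23-fold, to 16.0 ± 0.808 CPM with CYR61 (SD, n = 4), against 12.99 ± 0.946 CPM in controls (SD, n = 7; adjusted p = 0.00624, edgeR). Its kinases Ripk1 and Ripk3 did not pass. Among 6 priming receptors and NF-kB genes, 1 rose and 0 fell, against 5.33% and 2.63% of all genes tested. The gene that rose was Myd88, the adaptor of most toll-like receptors. Myd88 had 75.6 ± 2.60 CPM with CYR61 (SD, n = 4) and 62.5 ± 2.48 CPM in controls (SD, n = 7, adjusted p = 6.65e-05, edgeR). Tlr4, Cd14, Ticam1, Nfkb1 and Rela did not pass.

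**Figure D4:**
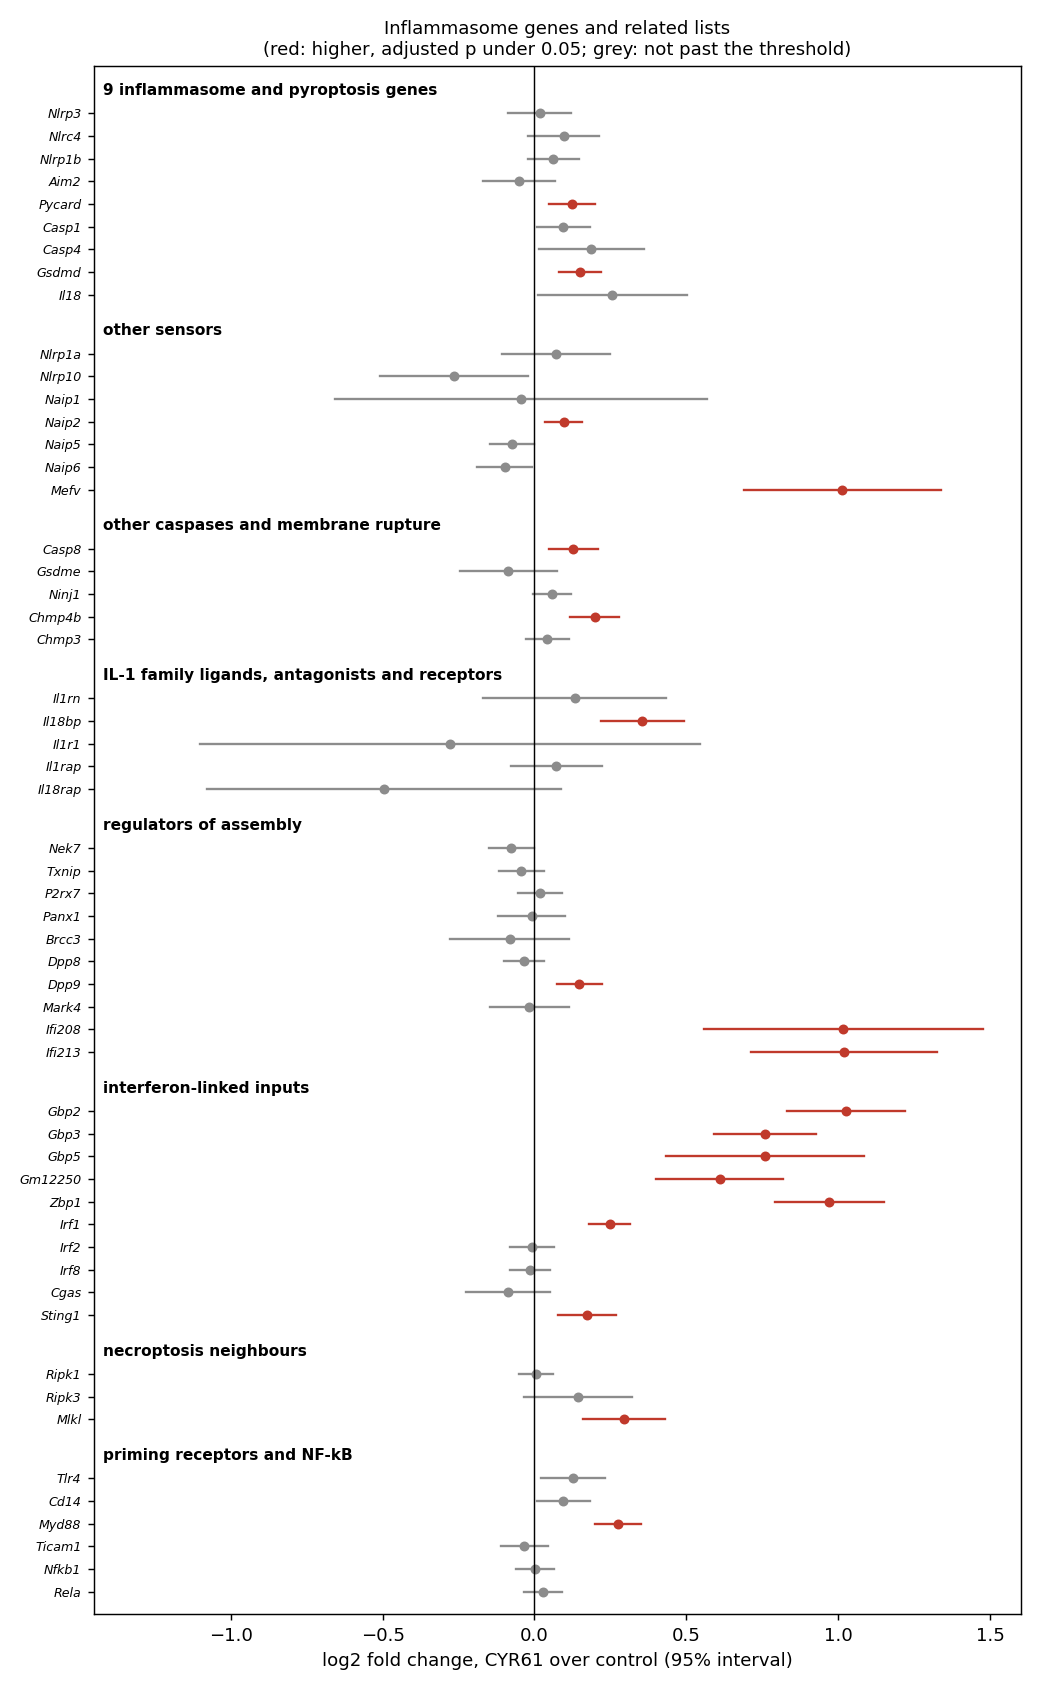
Log2 fold change of CYR61 over control (horizontal axis) with its 95% interval for the 9 genes and 46 tested genes of the related lists. Red marks genes called higher, which are 2 of the 9 and 17 of the 46; the largest folds are those of Mefv, Ifi208, Ifi213, Gbp2 and Zbp1.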

How the data were processed

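RNA was sequenced from 11 libraries of cultured mouse macrophages. Total RNA was depleted of ribosomal RNA, randomly primed and read in pairs, per the labels' protocols. DRAGEN is named in the submitters' processing notes, with no role or version; the sources used here name neither a genome build nor an annotation. The authors deposited expected counts (estimated counts) per Ensembl gene, not normalized, and 71.0 to 72.1% of the values above 0 in a library were whole numbers, by exact equality. A second table that the authors deposited holds their own log2 fold changes, p-values and scores, and its method is not stated. It was used for the sentences that name it and for nothing else.

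The table had 55774 rows, of which 287 repeated a gene ID and were dropped, which left 55487 genes. Expected counts were rounded and tested with edgeR 4.0.16 in R 4.3.3. filterByExpr with default settings left 15135 genes, libraries were scaled with TMM factors, and the 4 CYR61 and 7 control libraries were compared by glmQLFit and glmQLFTest, with no covariate. Two-sided p-values were adjusted over every tested gene (Benjamini-Hochberg), and 0.05 was the threshold. The standard error was the log2 fold change divided by the square root of F, and the 95% interval used its degrees of freedom. The script was checked on simulated counts. The biological coefficient of variation was 5.64%. CPM are TMM-scaled.

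Alternatives were RLE factors, library size alone, no filter, a minimum mean of 1 CPM, DESeq2 1.42.0, limma-voom (limma 3.58.1), the replicate number as a block in 8 libraries, those libraries without it, leaving out each library, leaving out CYR61 replicates 1 and 4, no mitochondrial or ribosomal RNA genes, and protein-coding genes. Chosen after seeing the data were sums of Nlrp1a with Nlrp1b and of Pycard with Gm45205.

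The 9 genes and the gene lists were chosen with earlier results of these data known. Named were all 9, up to 4 called genes of lowest p per list, list members too low to test, and the 3 genes of most similar profile for each called member. Others that are named were chosen after their values were seen. No pairing by replicate number was seen, and none is stated in the labels. Deviations from the group means of same-numbered libraries correlated at -0.03, 0.016, -0.04 and 0.04 for replicates 1 to 4. Separate mice or cultures are not stated in the labels, so the p-values reflect only how these libraries vary, possibly for technical reasons. A few genes of the lists are not reported here one by one, and counts over all lists include them.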

Additional observations from a re-analysis of the deposited data

Results flagged for a closer look

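Libraries that stood apart from the rest of their group were sought in the CPM of 27 genes, the 9 inflammasome genes and the 18 called genes of the related lists, by the gap of the highest or lowest library to its nearest neighbour relative to the group's range. Of 54 groups examined, 8 had such a library. The rule flags about 1 in 20 groups of independent, normally distributed values. These groups share the same 11 libraries, and 18 of the genes were included because they were called. The count therefore cannot be set against that rate. Among the 9 genes, Gsdmd was at 101 CPM in CYR61 replicate 1 (others 92.0 to 92.3 CPM), Nlrp3 at 47.3 CPM in CYR61 replicate 3 (others 43.0 to 43.7 CPM) and Casp1 at 44.9 CPM in CYR61 replicate 1 (others 47.8 to 48.1 CPM). Nlrc4 was at 19.2 CPM in control replicate 4, with the other controls at 16.5 to 17.4 CPM. Among the related genes, in controls, Mefv was at 2.52 CPM in replicate 3 (others 1.66 to 2.01 CPM), Il18bp at 11.7 CPM (others 9.64 to 10.4 CPM) and Gbp3 at 10.99 CPM (others 8.04 to 8.92 CPM) in replicate 7, and Sting1 at 38.9 CPM in replicate 1 (others 42.4 to 44.2 CPM). Without CYR61 replicate 1, Gsdmd had a log2 fold change of 0.12 and an adjusted p of 0.018 by edgeR.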

How the results depend on the processing

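With scaling by library size alone, 0 of the 9 genes were called higher, 3 genes of the related lists were lower, and over all genes 529 were higher and 938 lower, against 806 and 398 as reported; under it the median log2 fold change over all genes was -0.052, against -0.0076 as reported. Nlrp3 then had a log2 fold change of -0.028, and -0.016 without CYR61 replicate 3 and -0.0026 without control replicate 1; leaving out each library in turn gave -0.016 to 0.046. With limma-voom, 1 of the 9 genes was called, Gsdmd (adjusted p = 0.00847), and Pycard missed the threshold (adjusted p = 0.0516). With no filter on low counts, Gsdmd was again the 1 gene called (adjusted p = 0.0052, edgeR), and Pycard missed it (adjusted p = 0.0587, edgeR). Leaving out each library in turn gave 1 to 2 of the 9 as higher, and over all genes 583 to 903 higher and 205 to 469 lower; the lowest counts came without CYR61 replicate 2. Without CYR61 replicates 1 and 4 together 0 of the 9 were called.

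No pairing by replicate number was seen. In 8 libraries the replicate block gave 2 of the 9 as higher, Gsdmd at adjusted p = 0.0253 and Pycard at 0.0364 by edgeR, and without the block there were also 2, with 1 gene of the related lists lower. CYR61 replicate 1 correlated best with control replicate 3 (0.124), not with its own number. Over 24 alternatives Pycard kept its call in 12 and Gsdmd in 22, and the other 7 genes passed in 0. The causes were not tested. Il18 had the fewest counts of the 9 genes, 49 to 85 per library, and whether more depth would change its result was not tested.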
